A study of Mus musculus with 8 samples.

Results

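The genes described here encode vomeronasal and taste receptors, and they were chosen by name: 154 of the 16908 gene symbols annotated to 2 mouse promoter arrays begin with V1r, V2r, Tas1r or Tas2r, and none began with the newer prefixes Vmn1r or Vmn2r. They comprise 114 V1r genes, 4 V2r genes, 3 Tas1r genes and 33 Tas2r genes. The arrays compared Flag-IP DNA, recovered with an antibody to the Flag tag and labelled with Cy5, against input DNA labelled with Cy3. The cells were blood progenitors made from the mouse embryonic stem cell line B6N-22UTR. Precursors carrying c-Kit and CD41 were isolated after 6 days as embryoid bodies, placed on OP9 stromal cells and given a retrovirus for HoxB4 carrying a 3×FLAG tag, and c-Kit+ cells were collected magnetically at day 12 of the coculture with a purity above 95%.

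Both the Flag-IP and the input DNA came from these cells, in which HoxB4, a homeobox transcription factor that promotes growth of blood progenitors in culture, was overexpressed from a virus. A Flag-IP of cells without the tagged protein was not analysed here, so signal that does not depend on the tag could not be measured. The 2 arrays carry different probe sets, 237176 and 237147 probes after filtering, so every promoter has 1 sample and no replicate. No difference below could be tested, and all values are descriptions of these arrays. Arrays of DNA hold no marker transcripts against which the labelled cell type could be checked. Of the receptor genes, 112 lie on the first array and 42 on the second.

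Vomeronasal receptors are G-protein-coupled receptors of sensory neurons in the vomeronasal organ, which detects pheromones and other social odours. V1r receptors act with the G protein subunit Gnai2 and V2r receptors with Gnao1, in separate layers of that organ. Taste receptors of the Tas1r family pair with each other to sense sweet and umami compounds, and those of the Tas2r family sense bitter compounds. Many of these genes lie in clusters of close relatives, and a vomeronasal neuron uses few of them.

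The promoters of the 3 receptor genes with the highest and the 3 with the lowest Flag-IP over input near the start are shown first, because they differ in base composition as well as in signal. Each is 300 bases long, from 250 before to 50 after the RefSeq start of build GRCm38.p6. Each reads 5′ to 3′ on the gene's strand, and capitals mark TAAT, the core of the sites that homeobox proteins bind, on either strand (TAAT or ATTA).
Tas1r3, chr4:155863304-155863603, minus strand: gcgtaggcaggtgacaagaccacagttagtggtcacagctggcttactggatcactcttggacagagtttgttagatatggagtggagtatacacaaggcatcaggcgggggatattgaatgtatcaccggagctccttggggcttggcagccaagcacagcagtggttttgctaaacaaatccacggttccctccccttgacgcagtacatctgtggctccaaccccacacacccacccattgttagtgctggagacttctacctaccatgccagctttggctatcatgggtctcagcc
Tas2r126, chr6:42434285-42434584, plus strand: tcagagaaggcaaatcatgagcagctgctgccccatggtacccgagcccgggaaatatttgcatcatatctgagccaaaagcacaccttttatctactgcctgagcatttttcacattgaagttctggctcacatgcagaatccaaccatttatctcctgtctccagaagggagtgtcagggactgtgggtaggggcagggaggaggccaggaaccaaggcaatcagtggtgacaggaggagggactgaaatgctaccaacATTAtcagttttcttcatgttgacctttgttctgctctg
V1rb4 (now Vmn1r44), chr6:89893024-89893323, plus strand: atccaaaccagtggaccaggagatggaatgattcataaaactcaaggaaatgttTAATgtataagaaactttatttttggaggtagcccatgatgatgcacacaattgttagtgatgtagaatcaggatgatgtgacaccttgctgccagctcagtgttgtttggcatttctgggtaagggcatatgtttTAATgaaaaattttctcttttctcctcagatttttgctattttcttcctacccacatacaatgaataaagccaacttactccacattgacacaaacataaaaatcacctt
V1rc14 (now Vmn1r33), chr6:66612519-66612818, minus strand: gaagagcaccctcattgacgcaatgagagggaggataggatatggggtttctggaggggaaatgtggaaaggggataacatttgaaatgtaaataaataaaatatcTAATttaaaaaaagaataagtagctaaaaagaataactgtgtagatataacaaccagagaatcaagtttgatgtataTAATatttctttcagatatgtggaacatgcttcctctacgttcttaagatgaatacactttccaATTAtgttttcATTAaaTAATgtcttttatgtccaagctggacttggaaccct
Tas2r110, chr6:132867758-132868057, plus strand: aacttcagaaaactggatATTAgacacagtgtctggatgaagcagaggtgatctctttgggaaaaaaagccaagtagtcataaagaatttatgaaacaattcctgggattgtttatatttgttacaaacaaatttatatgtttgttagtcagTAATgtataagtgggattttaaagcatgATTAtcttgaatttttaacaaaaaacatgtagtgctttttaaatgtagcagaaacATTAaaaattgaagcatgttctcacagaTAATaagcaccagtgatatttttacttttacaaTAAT
V1rg5 (now Vmn1r74), chr7:11846525-11846824, plus strand: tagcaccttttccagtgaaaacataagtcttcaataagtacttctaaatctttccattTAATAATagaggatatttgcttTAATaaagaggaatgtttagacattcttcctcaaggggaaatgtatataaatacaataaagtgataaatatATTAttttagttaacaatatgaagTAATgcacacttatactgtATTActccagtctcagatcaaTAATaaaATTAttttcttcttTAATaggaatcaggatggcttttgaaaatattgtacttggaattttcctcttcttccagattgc
The Tas1r3, Tas2r126 and V1rb4 promoters hold 0, 1 and 2 TAAT matches and have 52.7%, 49% and 36.3% G+C. The V1rc14, Tas2r110 and V1rg5 promoters hold 5, 6 and 9 matches and have 33%, 28.7% and 27.7% G+C. No source used here names the build of the array's own coordinates, so the RefSeq window need not be the stretch the array calls the start.

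Values are log2 of the Flag-IP over the input signal, centred so that the median probe of an array is 0. A log2 ratio of 1 stands for Flag-IP at 2 times input relative to that median. For each gene the highest and the lowest median over 3 neighbouring probes, called a window, and the mean of all probes within 500 bp of the annotated start were taken. Of the 154 genes, 140 had a window and 133 had a probe within 500 bp of the start. The 14 genes with no window were 13 V1r genes and 1 V2r gene. The receptor genes had a median of 19 probes each (range 1 to 40), against 28 for all genes, and in the receptor genes the highest window correlated with the number of windows (Pearson r = 0.46, Spearman rho = 0.39, n = 140 genes, which share arrays). The part of probe number in the low highest windows was not tested.

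The receptor genes had low Flag-IP over input. Their highest windows had a median log2 ratio of -0.14 (interquartile range -0.51 to 0.14, range -2.11 to 1.89), against 0.91 (interquartile range 0.55 to 1.28) for all 16693 genes with a window. In 7 of 140 receptor genes (5.0%) the highest window reached a log2 ratio of 1, against a background of 43.3% of all genes, and none reached 2, against 3.15%. In 84 of 140 (60%) even the highest window lay below the array median, against 6.75% of all genes. The genes nearest below 2 were Tas1r3 at 1.89 and Tas1r1 at 1.76. Of the 140 genes, 130 fell below the lower quartile of all genes and 7 above the median of all genes.

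**Figure D1:**
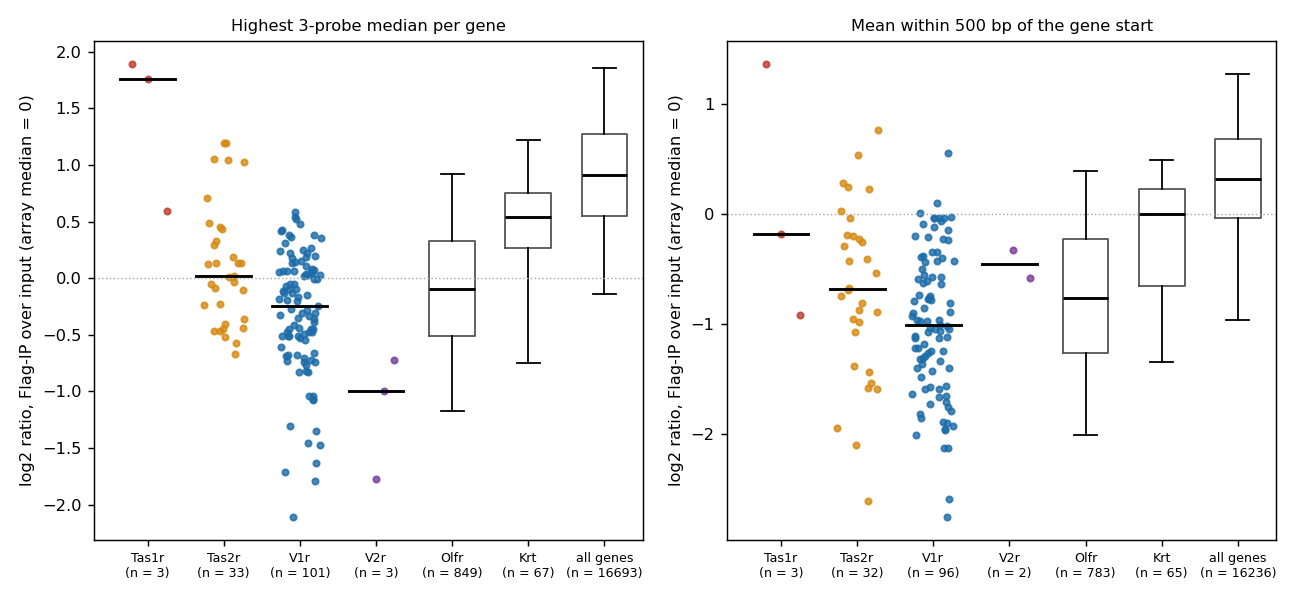
Highest 3-probe median per gene (left) and mean within 500 bp of the start (right) as log2 ratios of Flag-IP over input, with each receptor gene as a point, black bars at the medians, and boxes (median, quartiles, whiskers from the 5th to the 95th percentile) for olfactory receptor genes, keratin genes and all genes. Tas1r points reach 1.89 on the left, whereas V1r points end at 0.59 and their median of -0.24 lies below the all-gene median of 0.91.

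Around the start the difference from all genes was wider in the main setting, but not in every setting. With normexp background correction the medians were -0.48 against 0.47 around the start and -0.02 against 1.03 for the highest window. With the brightness trend removed they were -0.54 against 0.19 and 0.12 against 0.83. The mean within 500 bp had a median log2 ratio of -0.90 in receptor genes (interquartile range -1.39 to -0.38), against 0.32 in all 16236 genes with such a mean (interquartile range -0.04 to 0.68). It was above 0 in 10 of 133 receptor genes (7.52%), against a background of 73.2%. It was -1 or lower in 58 of 133 (43.6%), against 4.59%. The lowest window reached -1 in 127 of 140 receptor genes (90.7%), against 54.8%, and -2 in 55 of 140 (39.3%), against 11.6%. With normexp background correction the lowest window reached -1 in 18 of 140 (12.9%), against 6.91% of all genes. The 2 arrays gave like values: the median of the mean within 500 bp was -0.97 for the 97 receptor genes measured on the first array and -0.77 for the 36 on the second, against 0.34 and 0.31 for all genes of the same arrays.

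The Tas1r genes, whose products form the sweet and umami receptors, stood highest. Tas1r3 encodes the subunit that both receptors share. Its 6 probes within 500 bp had log2 ratios of 1.62, 1.17, 1.56, 1.35, 2.04 and 0.45, from 474 bp upstream to 373 bp downstream of the start. All 6 were well above background in both channels, and their mean was 1.36 ± 0.54 (SD over probes, 1 sample). The highest window of Tas1r3 was 1.89 and its lowest was 0.18, so no window of this gene lay below the array median, although single probes went down to -0.57.

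Tas1r1, the partner of Tas1r3 in the umami receptor, also had a high window, of 1.76, with single probes from 0.67 to 2.05. That window lies 10302 bp into the gene, and 5 probes annotated to Tas1r1 are also annotated to Nol9, a neighbouring gene for ribosomal RNA processing. Around the start itself Tas1r1 had a mean of -0.18 ± 0.43 (SD over 7 probes). Tas1r2, the sweet receptor partner, had a highest window of 0.60 at 3510 bp upstream and a mean around the start of -0.91 ± 1.05 (SD over 5 probes). Its lowest probe, at -2.64, was not well above background in either channel. Of the 3 Tas1r genes, Tas1r3 alone had a mean above 0 around the start.

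Among the 33 bitter receptor genes the highest windows had a median of 0.02 and ran from -0.67 (Tas2r140) to 1.20. In 5 of the 33 (15.2%) the window reached a log2 ratio of 1, against 43.3% of all genes. Tas2r126 had its highest window, 1.03, at the start, where 7 probes from 473 bp upstream to 481 bp downstream read 0.16, 0.72, 0.73, 1.75, 1.03, 0.72 and 0.22. The values climbed to the probe 24 bp downstream of the start and declined on both sides, and their mean was 0.76 ± 0.53 (SD over 7 probes). Tas2r134 also had its highest window at the start, 1.06 at 90 bp downstream, but its 6 probes ran from -1.55 to 1.31 and averaged 0.25 ± 1.07 (SD). Tas2r143 reached 1.05 at 3089 bp upstream, with a mean around the start of 0.23 ± 0.30 (SD over 5 probes).

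Tas2r137 and Tas2r108 share the window that gave both of them 1.20. It lies between them, 899 bp downstream of the Tas2r137 start and 1329 bp upstream of the Tas2r108 start. With windows made from a gene's own probes alone, an alternative added after the data were seen, the values were 0.80 for Tas2r137 and 0.63 for Tas2r108, so both depend on probes of the neighbour. The mean around the start was 0.54 ± 0.62 for Tas2r137 (SD over 4 probes) and -0.22 ± 0.37 for Tas2r108 (SD over 6 probes). Just below a log2 ratio of 1 came Tas2r138, the bitter receptor related to the human receptor for phenylthiocarbamide, at 0.71, and then Tas1r2 at 0.60.

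**Figure D2:**
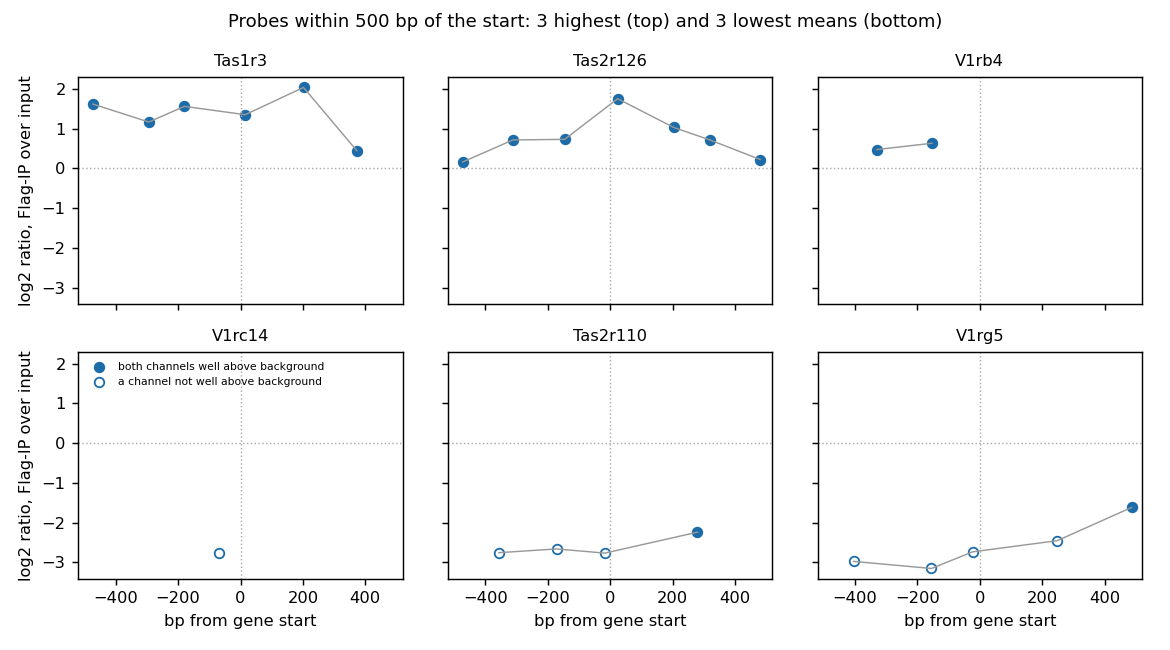
Log2 ratio of Flag-IP over input at each probe against distance from the annotated start in bp, for the 3 receptor genes with the highest (top row) and the 3 with the lowest mean within 500 bp (bottom row). Filled points were well above background in both channels and open points were not. Within these 500 bp all 6 probes of Tas1r3 lie above 0, up to 2.04, and all 5 probes of V1rg5 lie below 0, down to -3.15.

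The lowest means around a start belonged to genes of both V1r and Tas2r families, and most of them rest on dim Flag-IP spots. V1rc14 had 1 probe, with a log2 ratio of -2.75, whose Flag-IP signal was not well above background. With that spot raised to the lowest signal among probes well above background, input there was 5.82-fold above Flag-IP. Such folds hold for the processed signals and are not lower limits, since other dim Flag-IP spots lay above that lowest signal. The bitter receptor gene Tas2r110 had log2 ratios of -2.75, -2.66, -2.77 and -2.24, with Flag-IP well above background at 1 of the 4 probes. Over its 3 probes with input well above background, input was 4.17-fold above Flag-IP with dim spots raised in the same way. V1rg5 had log2 ratios of -2.97, -3.15, -2.73, -2.45 and -1.62, and Flag-IP was well above background at 1 of the 5 probes. With dim spots raised likewise, input was 3.25-fold above Flag-IP over the 4 probes with input well above background.

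V1rc22 (now Vmn1r30) and V1rc12 (now Vmn1r35) rest on 1 probe each, at -2.13 and -2.12, and Flag-IP was not well above background at either. Input there was 4.37-fold and 4.36-fold above Flag-IP. These are ratios as read, since both Flag-IP spots exceeded the lowest signal to which dimmer spots were raised. The size of these low values depended on the background correction. With normexp the means were -0.89 for V1rc14, -0.87 for Tas2r110, -0.85 for V1rg5, -0.85 for V1rc22 and -0.88 for V1rc12. All of these are smaller in size, on the log2 scale, than the folds above. With the brightness trend removed they were -1.58, -0.98, -1.04, -0.96 and -1.25 for the same genes. Tas2r125 differed from these genes in brightness: its 6 probes averaged -2.10 ± 0.54 (SD), and all 6 were well above background in both channels. Its mean was -0.80 with normexp and -1.76 with the brightness trend removed. Across the 133 receptor genes, 98 had Flag-IP well above background at every probe within 500 bp and 35 did not, 6 of them at no probe. Of the 58 genes with a mean of -1 or lower, 28 had Flag-IP well above background at every such probe.

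V1r genes, the largest family here, had no window at a log2 ratio of 1. Their highest windows had a median of -0.24 and ended at 0.59 in V1rg11 (now Vmn1r84), whose 3 probes spread from -0.53 to 1.31. The mean around the start had a median of -1.01 in the 96 V1r genes that had one. It was above 0 in 3 of them (3.12%), against 73.2% of all genes. The highest was V1rb4, at 0.55 ± 0.11 (SD over 2 probes of 0.48 and 0.63). The lowest highest windows among V1r genes belonged to V1rg8 (now Vmn1r83) at -2.11 and V1rg5 at -1.79, followed by V1rc8 (now Vmn1r25) at -1.71 and V1rc2 (now Vmn1r29) at -1.63. V1ri9 (now Vmn1r193), V1rh17 (now Vmn1r188) and V1rd7 (now Vmn1r171) had highest windows of -1.47, -1.45 and -1.35. Most of these genes had few windows to choose from: V1rc8 had 1, V1rg8, V1rc2 and V1rd7 had 2 each, V1rh17 had 3 and V1ri9 had 4, but V1rg5 had 10. Their order depended on the processing. With the brightness trend removed, V1rg8 was at -0.22, V1rc2 at -0.02, V1rg5 at -0.67 and V1rc8 at -0.64, and V1ri9 was lower than these at -1.05.

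The V1r subfamilies, groups of closely related receptors, differed from each other around the start. V1rb and V1ra genes, which lie side by side in 1 cluster on chromosome 6, had medians of -0.04 (7 genes) and -0.20 (5 genes). V1rg genes on chromosome 7 had a median of -1.59 (9 genes) and V1rc genes on chromosome 6 one of -1.41 (22 genes). The remaining larger subfamilies lay between, with medians of -0.62 for V1rh (12 genes), -0.78 for V1ri (9 genes), -0.90 for V1rd (10 genes) and -1.06 for V1re (13 genes). The smallest had medians of -0.92 for V1rf (5 genes) and -0.47 for V1rj (2 genes), and the single V1rl and V1rk genes had -1.29 and -1.59. V1rb genes ran from -0.63 to 0.55 and V1rc genes from -2.75 to -0.57, so their ranges overlapped only at the edge. The promoters of V1rb and V1ra had 41.2% and 43.3% G+C at the median, and those of V1rg and V1rc had 27.5% and 31.2%. The part of G+C in these differences was not tested.

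**Figure D3:**
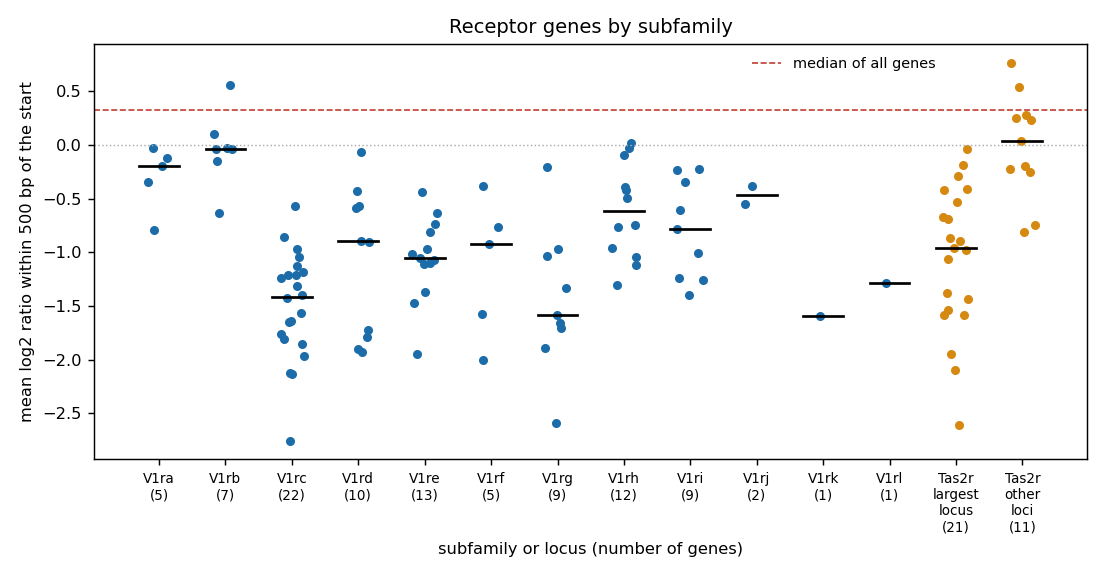
Mean log2 ratio of Flag-IP over input within 500 bp of the start for each V1r gene by subfamily (blue) and for Tas2r genes inside and outside their largest locus (orange), with black bars at group medians and the number of genes in brackets. All 21 Tas2r genes of the largest locus lie below 0, whereas 6 of the 11 elsewhere lie above it, against 73.2% of all genes. The dashed line marks the all-gene median of 0.32.

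The 4 V2r symbols were sparsely covered. Highest windows were -0.72 for V2r10, -1.0 for V2r11 and -1.77 for V2r16 (now Vmn2r10), and V2r1b had none. V2r10 and V2r11 carry accessions that RefSeq now joins in 1 gene, Vmn2r89, so they are not independent. Around the start V2r11 and V2r16 had 1 probe each, with -0.33 and -0.58.

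The bitter receptor genes split by place. The grouping by locus was made after the values were seen. Of the 33 Tas2r genes, 22 lie in 1 cluster on chromosome 6. Their highest windows had a median of -0.16, with 0 of 22 at a log2 ratio of 1, against 43.3% of all genes. The other 11, spread over smaller clusters and single sites, had a median of 0.71 with 5 of 11 (45.5%) at 1 or above. That share is near the 43.3% of all genes, and the 5 include Tas2r137 and Tas2r108, which share 1 window. The mean around the start had a median of -0.96 in the cluster, with 0 of 21 above 0. Elsewhere the median was 0.03, with 6 of 11 (54.5%) above 0, against 73.2% of all genes. Tas2r135, at 0.28 ± 0.50 (SD over 5 probes), belongs to the second set, as do Tas2r126 and Tas2r143, which lie in the same small cluster. Promoter G+C had a median of 34.0% in the large cluster and 42.7% elsewhere, and its part was not tested.

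Pooled over loci, other genes close to the receptor clusters had values near those of all genes, but single loci differed. Within 500 kb of a receptor locus lay 285 other genes, and their mean around the start had a median of 0.36 over 270 genes, with 71.1% above 0, against 73.2% of all genes. In 131 of 278 (47.1%) the highest window reached a log2 ratio of 1, against 43.3% of all genes. Near the large Tas2r cluster, however, 7 other genes had a median mean of -0.39 around the start, a median highest window of 0.37 and 0 of 7 at 1. The 8 other genes with such a mean near V1re12 on chromosome 7 had a median of -0.47, and the 12 near Tas2r137, Tas2r108 and Tas2r138 one of -0.13. The neighbours of the V1rh and V1ri cluster on chromosome 13, many of them histone genes, had a median of 0.81 over 44 genes. All neighbours together had a median promoter G+C of 52.8%.

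The low ratios came with dim signal in both channels, more so in Flag-IP. Over all 2970 receptor probes the median Flag-IP signal was -1.25 on the log2 scale relative to the array median, and the median input signal was -0.33. Flag-IP was well above background at 88.5% of receptor probes, against 97.0% for all genes, and input at 96.3%, against 97.2%. Across all probes the log ratio correlated with probe brightness, the mean of both channels (0.574 on the first array and 0.546 on the second). Flag-IP signal enters both of these quantities. Over genes in place of single probes, the mean around the start correlated with input alone at Pearson r = 0.34 (16236 genes). Input also enters the ratio, as its divisor, so these correlations cannot be ranked against each other. In classes of like input brightness receptor probes had lower means than other probes, and the part of brightness in the low ratios was not tested. In the dimmest class, an input of -1 or below, receptor probes averaged -1.41 (629 probes) and other probes -0.52. In the brightest class, an input above 1, receptor probes averaged -0.28 (194 probes) and other probes 0.29. Receptor probes were lower in the 4 classes between as well.

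Along the gene, receptor probes as a whole stayed low upstream and came closest to the array median just inside the gene. The mean log2 ratio of receptor probes was -1.07 from 500 to 250 bp upstream (147 probes), -0.93 in the last 250 bp before the start (146 probes) and -0.51 in the first 250 bp after it (96 probes). In the last 250 bp before the start V1r probes averaged -1.14 (96 probes) and Tas2r probes -0.60 (46 probes). The mean of all receptor probes was -0.65 from 250 to 500 bp, -0.73 from 500 to 1000 bp and -1.11 from 1000 to 2000 bp downstream. All genes ran from -0.32 between 6000 and 4000 bp upstream to a peak of 0.43 in the first 250 bp of the gene. The spread over probes was wide in every stretch (SD from 0.75 to 1.02 for receptor probes). Receptor probes lying inside genes averaged -0.54 (454 probes), those in promoters -1.03 (1973 probes) and those downstream of genes -1.14 (534 probes). The input signal was brighter over the same stretch, at 0.06 and 0.21 in the first and second 250 bp of the gene against -0.39 in the last 250 bp before it, and its part in the pattern was not tested.

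**Figure D4:**
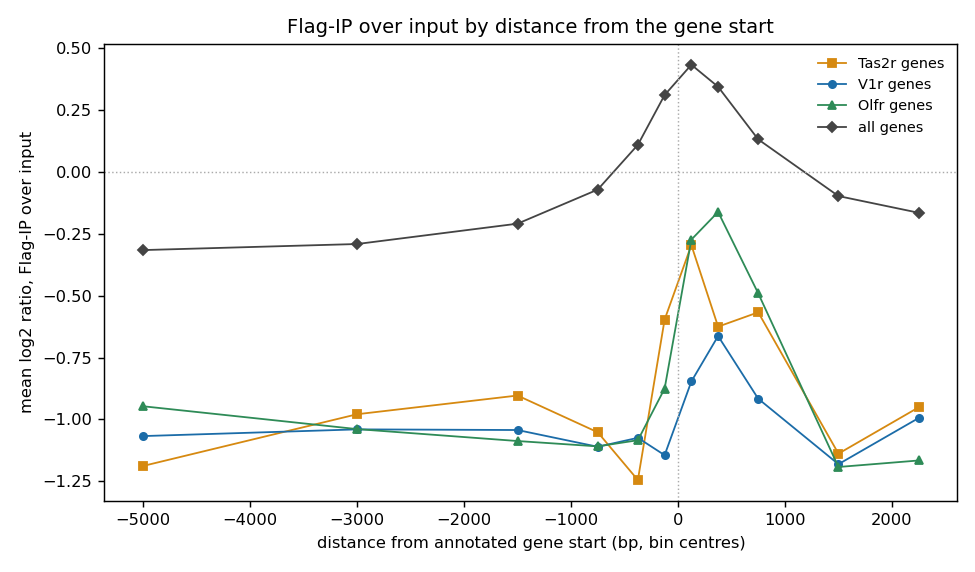
Mean log2 ratio of Flag-IP over input against distance from the annotated start (bp, points at bin centres) for Tas2r, V1r and olfactory receptor (Olfr) genes and for all genes. V1r and Olfr genes come closest to 0 from 250 to 500 bp into the gene and Tas2r genes in the first 250 bp, where all genes peak at 0.43, and Tas2r genes are already at -0.60 in the last 250 bp upstream.

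The highest window of a receptor gene was rarely at its start: it lay within 500 bp in 25 of 140 genes (17.9%), against 36.2% of all genes. The lowest window lay there in 15 of 140 (10.7%), against 6.61%.

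Promoter composition varied with these values. RefSeq promoters were listed for 134 of the 154 receptor genes, with a median G+C of 35.7% and a median of 1 CpG. Of all 16908 symbols 13222 (78.2%) had a promoter, with a median G+C of 58.0% and 16 CpG. Since under 80% were covered, a check of G+C over all genes is void, and the figures for other genes describe the listed ones. Over the 115 receptor genes with both values, G+C and the mean around the start correlated (Pearson r = 0.56, Spearman rho = 0.57), and so they did within Tas2r (r = 0.70, n = 28 genes) and V1r (r = 0.46, n = 82 genes). The points share arrays and lie in clusters of related genes.

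Set beside other genes of like G+C, olfactory receptor genes included, the receptor genes differed less. The listed promoters of 744 olfactory receptor genes had a median G+C of 35.3%, so these genes may make up much of the lowest classes. A comparison without them was not made, so the classes do not show how low unrelated genes of like G+C lie. Between 25% and 35% G+C, 47 receptor genes had a median of -1.21 around the start and 351 other genes one of -1.05. Between 35% and 40%, 44 receptor genes had -0.76 and 417 other genes -0.61. Between 40% and 45%, 17 receptor genes had -0.06 and 734 other genes -0.17. The quartiles of the 2 sets overlapped in each of these classes, for instance -1.65 to -0.96 in receptor genes and -1.53 to -0.57 in other genes at the lowest G+C. For the highest window the receptor genes were lower in all 3 classes, at -0.46, -0.17 and 0.15, against -0.24, 0.09 and 0.53 in other genes. Higher classes held few receptor genes. Between 45% and 50%, 2 receptor genes had a median of 0.50 around the start and 1185 other genes 0.12. Between 50% and 60%, 3 receptor genes had -0.18 and 4355 other genes 0.45.

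**Figure D5:**
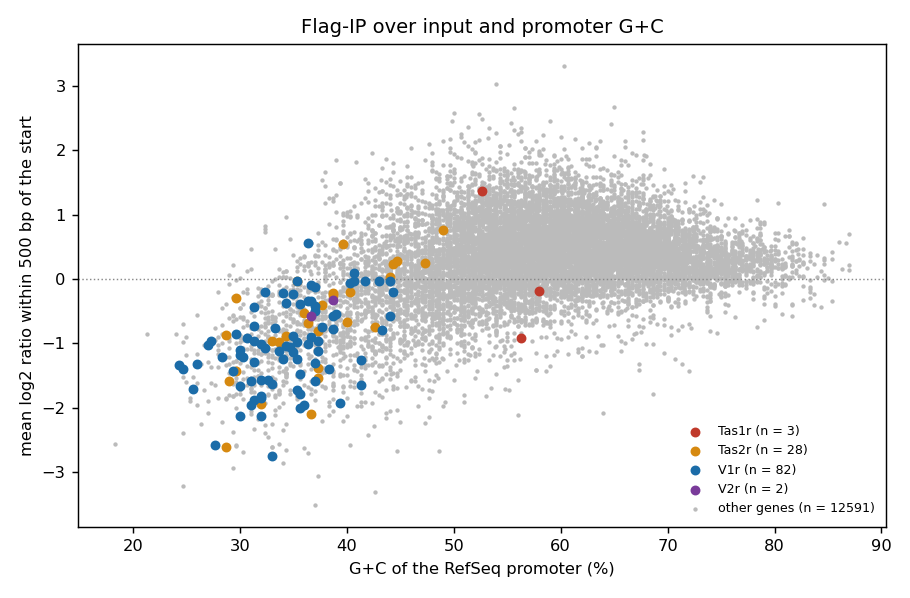
Mean log2 ratio of Flag-IP over input within 500 bp of the start against G+C of the RefSeq promoter in percent, one point per gene, with receptor genes in colour and other genes in grey. Receptor genes gather at the low end of G+C (median 35.7%), inside the range of other genes of like G+C. The other genes include the olfactory receptor genes, and Tas1r3 stands at 52.7% and 1.36.

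TAAT was frequent in the receptor promoters. On either strand TAAT occurred in 125 of 133 distinct receptor promoters (94.0%), with a mean of 4.05 ± 2.60 matches (SD over promoters), against 58.0% of all 32851 promoters in the table with a mean of 1.41. V1rg promoters, at the low end of the signal, held 6.4 matches on average (10 promoters), V1rc 5.75 (24 promoters), V1rb 2.17 (6 promoters) and V1ra 2.5 (8 promoters). The longer TAATTA, which contains TAAT, occurred in 12.0% of receptor promoters, against 5.29%. Of the sites for a Hox protein with its Pbx partner, TGATTGAT occurred in 1 receptor promoter (0.752%, against 0.746% of all), TGATTAAT in 6 (4.51%, against 0.700%) and TGATTTAT in 4 (3.01%, against 0.977%), of which TGATTAAT contains TAAT. The core promoter element TATAAA, added after the data were seen, occurred in 37.6% of receptor promoters, against 13.6%. A match is only a description of the letters in a 300-base window. TAAT and TATAAA hold only A and T, and receptor promoters had a median G+C of 35.7%, against 58.0% for the listed promoters of all symbols. Matches were not counted in other promoters of like G+C, and the part of G+C in these counts was not tested.

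The olfactory receptor genes (Olfr), the closest comparison by kind of gene, had similar values. The highest window had a median of -0.14 in the vomeronasal and taste receptor genes and -0.09 in 849 Olfr genes, and it reached 1 in 5.0% and 4.0% of them. The mean around the start had a median of -0.90 in the vomeronasal and taste receptor genes and -0.77 in 783 Olfr genes, and was above 0 in 7.52% and 14.4%. Promoter G+C had medians of 35.7% and 35.3%. The profile of Olfr genes ran higher inside the gene: from 250 to 500 bp V1r probes averaged -0.66, Tas2r probes -0.62 and Olfr probes -0.16. Keratin genes (Krt and Krtap), another clustered family with little use in blood cells, had a median highest window of 0.54 (67 genes) and a median around the start of -0.0023 (65 genes), with a promoter G+C of 46.3%.

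A broader list of chemosensory genes was looked up next. Not all of them work with these receptors, since some belong to olfactory neurons or sour-sensing taste cells. Of 61 listed genes for signalling, transport and development of chemosensory cells, 52 were found on the arrays. Their highest windows had a median of 0.73, against 0.91 for all genes, with 19 of 52 (36.5%) at a log2 ratio of 1 or above, against 43.3%, and 0 at 2, against 3.15%. The mean around the start was above 0 in 30 of 50 (60%), against 73.2%, with a median of 0.08. The highest windows were those of Gng8, a G protein gamma subunit of vomeronasal neurons, at 1.79 and Pkd1l3, a channel subunit of sour-sensing taste cells, at 1.77. Emx2, a homeobox factor of olfactory neurons, had 1.36, the synaptic protein gene Snap25 had 1.34 and Reep1, a receptor transport protein gene, had 1.31. At the low end were H2-M10.3, a histocompatibility gene used with V2r receptors, at -0.20, the G protein subunit gene Gnb1 at -0.15, H2-M1 at -0.01, the formyl peptide receptor gene Fpr1 at 0.01 and Rtp3 at 0.08. The Gnb1 window lies 31575 bp inside the gene, with no probe within 500 bp of the start. The Pkd1l3 window lies at -5703 bp from the start, and only 1 of its 3 probes is annotated to Pkd1l3. Around the start Pkd1l3 had a mean of 0.10. The H2-M10.3 window lies at -4177 bp, and its 1 probe around the start had 0.74. H2-M1, Fpr1 and Rtp3 had means of -0.35, -0.89 and -0.79 there.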

How the data were processed

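The intensities are processed signals deposited by the authors from Agilent Feature Extraction 10.1.1.1, background-subtracted, spatially detrended and scaled per dye, per the file headers. A log10 ratio column and log10 value tables, also deposited, served as alternatives; the value tables equalled log10 of the processed signals at 100% of probes within 0.001. From the processed signals the log2 ratio of Flag-IP to input was taken without loess or quantile steps, leaving out control spots and 19 and 38 outlier-marked probes. It was centred on the array median, 0.06 and 0.07 before centring. Windows are medians of 3 probes whose starts lie at most 1000 bp apart, and a window counts for each gene annotated to one of its probes. Both channels were well above background at 95.3% of probes on each array, and 0 were saturated. The 2 arrays limit the precision.

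The rule for named genes took the 8 highest and 8 lowest by highest window, the 6 highest and 6 lowest by mean around the start, all Tas1r genes, the extremes of each family, the neighbours of log2 ratios of 1 and 2 and, from the pathway list, the 5 highest and 5 lowest. Members and lists were chosen with earlier results of these data known. RefSeq named 151 of the 154 symbols; 4 other symbols now belonging to these families fell outside the rule. The genes not found from the pathway list, and the 6 expression arrays, whose probe sets are not paired with genes in the sources used here, were not analysed here. R 4.3.3, limma 3.58.1 (normexp) and Python 3.11.15 were used, and the window code was tested on simulated data.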

Additional observations from a re-analysis of the deposited data

How the results depend on the processing

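No paired analysis was possible because each promoter has 1 sample and no test was made. The median of the highest windows ran from -0.34 to 0.12 over the alternatives and the median of the mean around the start from -0.97 to -0.48; the only alternative that turned the first above 0 was removal of the brightness trend. With normexp background correction 17 of 133 receptor genes had a mean above 0, against 10 as reported, and the lowest window reached -1 in 18 of 140, against 127, while the share of all genes reaching it was 6.91% in place of 54.8%. Of 51 values of single named genes, 20 moved by more than their probe spread with normexp and 19 with the brightness trend removed. Where a mean rested on 1 probe, the median spread over receptor genes, 0.54, stood in for its own. With the brightness trend removed, 2 of 140 had a window at 1 (35.5% of all genes) and 26 of 133 a mean above 0 (68.0% of all genes). Windows of 5 probes left 2 of 127 genes at 1. Without centring 16 means lay above 0, and with probes within 250 bp 17 of 117. On the second array alone 0 of 42 genes reached 1, 1 of 36 had a mean above 0 and 38 of 42 a lowest window of -1; this holds fewer genes. The cause of the other shifts was not tested. The deposited ratio column, the deposited value table, probes well above background, probe spacing of 500 bp, 1000 bp around the start, the median of probes, the first array alone and 3 alternatives added after the data were seen (own probes, 3 or more probes near the start, no Tas1r genes) kept each count within 1.5 times. Signal over background limits the lowest ratios, and few probes limit single V1r genes: 27 genes had 1 probe within 500 bp.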
